A study of Mus musculus with 24 samples.

Results

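The receptors for the myeloid colony stimulating factors and interleukin-3 were followed over 4 sorted mouse blood progenitor populations with and without Ikaros. The 6 genes are Csf1r, Csf2ra, Csf2rb, Csf2rb2, Csf3r and Il3ra, of 18193 genes on the array. They were chosen by symbol, as every probe set annotated to one of these symbols and no other, which gave 10 probe sets of 34945. Csf1r had 3 probe sets, Csf2ra and Csf2rb had 2 each, and Csf2rb2, Csf3r and Il3ra had 1 each. Signals are log2 values on which 1 unit is a 2-fold difference. Unless another is named, the probe set shown for a gene is its brightest on average.

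RNA of 24 sorted samples was hybridised to 24 one-colour arrays, 3 for each of 8 groups, and the number of arrays limits the precision. The KO mice came from the Ikaros-null I74 line (C57BL/6 x 129SV) and the WT mice lacked that mutation. All groups, WT included, carried the Ikaros-based GFP reporter B-p-GFP-C (C57BL/6 x C3H). The gates were therefore set on a reporter built from the regulatory sequence of the mutated gene, and strain background and genotype cannot be told apart. Within each genotype the labels name the LSK GFPneg-lo gate HSC, the LSK GFPhi gate LMPP, the LK GFPneg gate MEP and the LK GFPhi gate GMP, so the 8 groups are these 4 gates in KO and in WT mice. Per the titles, arrays within a group are biological replicates. Nothing states the age of the mice or whether an array is 1 animal or a pool, so p-values measure the spread between arrays, part of which may be technical.

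A cytokine receptor lets a progenitor respond to a growth factor made by other cells. Csf1r is a receptor tyrosine kinase that binds CSF1 and IL-34 and carries monocyte and macrophage development. Csf2ra and Il3ra are the ligand-binding alpha chains for GM-CSF and IL-3, and Csf2rb is the beta chain they share with the IL-5 receptor to signal through JAK2 and STAT5. Mice carry a duplicate beta chain, Csf2rb2, which serves IL-3 only. Csf3r is the single-chain receptor for G-CSF, the main growth factor of neutrophils. Ikaros, the product of Ikzf1, binds DNA through zinc fingers and is best known for its part in lymphoid development.

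In the RefSeq table of build GRCm38.p6, Csf2ra lies at chr19:61217191-61228461, Csf3r at chr4:126023441-126044975 and Il3ra at chr14:14345912-14355493. The beta chain genes are neighbours, Csf2rb2 at chr15:78282507-78305721 and Csf2rb at chr15:78325800-78351001. The stretches before the start sites of Csf2rb2 and Csf2ra are shown because both genes were higher in KO than in WT LK GFPhi cells. They are the 250 bases before the Csf2rb2 start (chr15:78305722-78305971, minus strand) and a 28-base stretch from 30 to 3 bases before the Csf2ra start (chr19:61228421-61228448, minus strand). The RefSeq promoter table counts from one start per gene, which for Csf2rb2 is the first base of the span above. For Csf2ra it lies 43 bases inside the span above, at position 61228418, so the printed stretch is within that span, and for Csf3r and Il3ra it lies 1218 and 583 bases inside. Capitals mark GAGGAA, the core of PU.1 sites, and TGGGAA, the core of Ikaros sites, on either strand (TTCCTC and TTCCCA on the other).
Csf2rb2: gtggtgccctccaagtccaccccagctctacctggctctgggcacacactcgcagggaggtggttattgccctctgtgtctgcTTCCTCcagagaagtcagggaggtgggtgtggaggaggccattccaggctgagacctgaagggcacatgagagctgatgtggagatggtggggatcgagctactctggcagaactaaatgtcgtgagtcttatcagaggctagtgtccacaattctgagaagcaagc
Csf2ra: TTCCCAacctgcagatGAGGAAGAGGAA
The windows of 4 of the 6 genes were matched, those of Csf2ra, Csf2rb2, Csf3r and Il3ra, and the letters TTGCNNAA of C/EBP sites were searched as well, with no overlap between any matches. Csf2ra held 1 Ikaros core and 2 PU.1 cores, and Csf2rb2 and Csf3r held 1 PU.1 core each. Il3ra held 1 C/EBP match. Of all 32851 windows of this length, 21.6% held an Ikaros core, 23.3% a PU.1 core and 9.56% a C/EBP match, so a match is a description of the letters and not a binding site.

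The targeted gene and the sorts were checked first. Ikzf1 lay between 6.51 and 8.88 on the 12 KO arrays and between 10.99 and 11.99 on the 12 WT arrays, and whether its probe set lies in the deleted part was not tested. In WT cells the erythroid and megakaryocyte list (10 genes) was highest in LK GFPneg cells and the stem cell list (10 genes) in LSK GFPneg-lo cells, while the granulocyte and monocyte progenitor list (10 genes) was highest in LK GFPhi cells. The early lymphoid list (10 genes) did not single out LSK GFPhi, at 7.92 to 8.23 there, against 8.05 to 8.26 in WT LK GFPhi. A WT array stood apart: replicate 2 of LK GFPhi had a granulocyte and monocyte progenitor mean of 10.27, against 11.46 and 11.32 on the other two. Without it the same 2 receptor genes, Csf2ra and Csf2rb2, were called in LK GFPhi.

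In WT cells the receptors were at their lowest in the LK GFPneg gate, the one labelled MEP. With limma, 21 of 36 gene by pair results passed an adjusted p of 0.05 in the 6 WT pairs, against 16.1% of results over all genes. Each WT population enters 3 of these pairs, so they share arrays. All 6 genes were higher in LK GFPhi than in LK GFPneg cells (9.98% of all genes were called higher), and all 6 were higher in LSK GFPhi than in LK GFPneg cells (14% of all genes). In LK GFPneg against LSK GFPneg-lo cells 5 of 6 were lower (14.1% of all genes). These counts rest on the brightest probe set of each gene. For LSK GFPhi minus LK GFPneg cells, dimmer probe sets gave 0.29 for Csf2rb, 0.40 for Csf2ra and 0.59 for the dimmest of Csf1r, none called. The second Csf1r probe set gave 2.31 for that pair and was called. For LK GFPneg minus LSK GFPneg-lo cells the dimmer probe sets gave -0.12 for Csf2rb, -0.55 for Csf2ra and -0.04 and 0.10 for Csf1r, none called. For LK GFPhi minus LK GFPneg cells only that of Csf2ra was not called (0.27). The median of the 6 differences was 2.03 for LK GFPhi minus LK GFPneg cells, where that of all genes was 0.000.

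**Figure D1:**
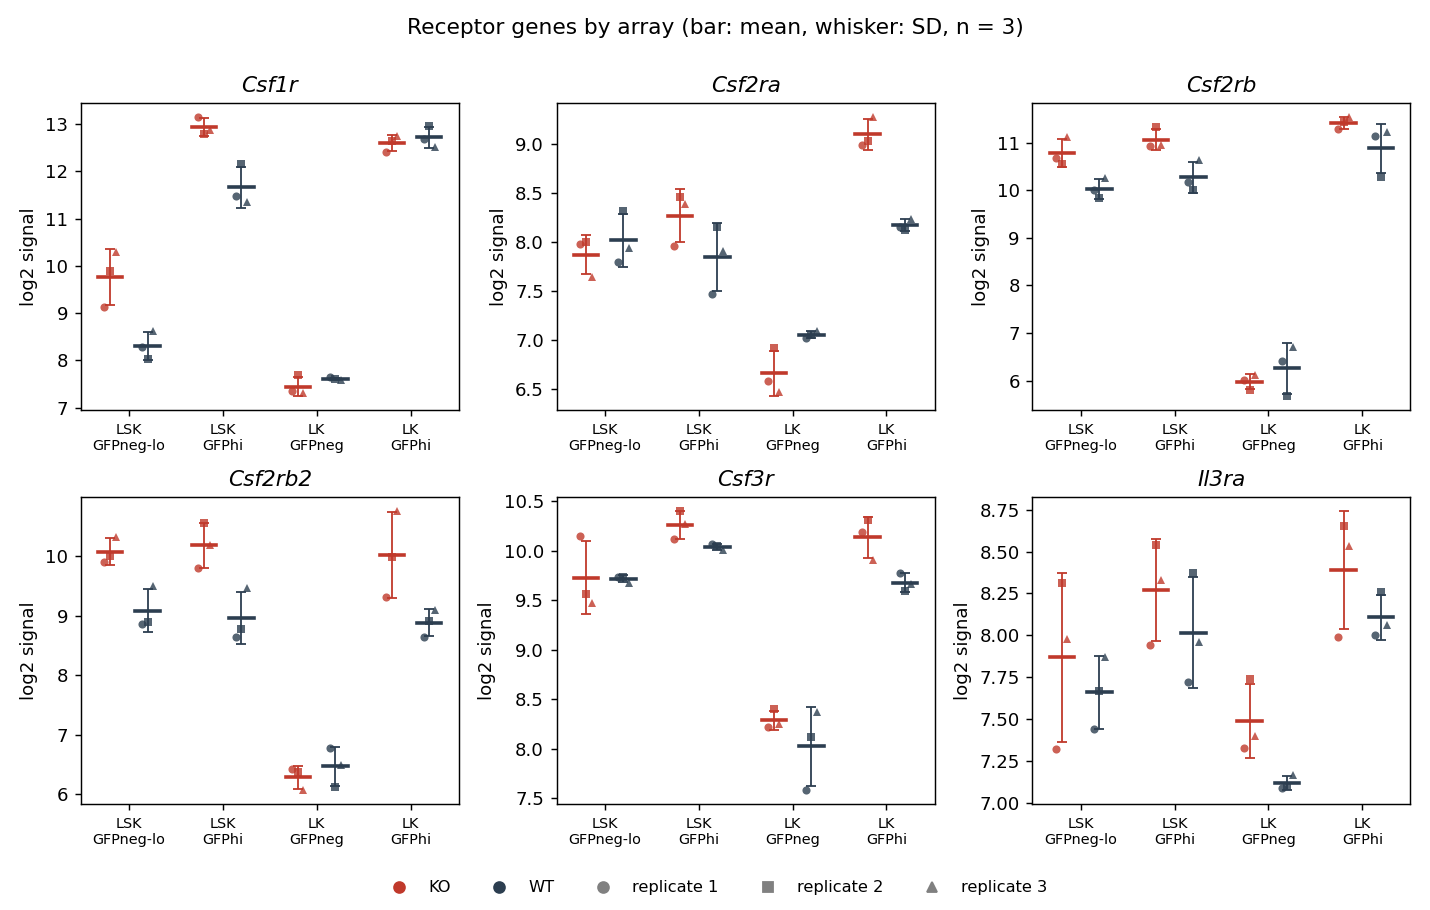
Log2 signal of each receptor gene (vertical axis) by population (horizontal axis), with 1 point per array, the mean as a bar and the SD as a whisker (n = 3), KO in red left of WT in dark blue. In every panel the LK GFPneg mean is the lowest of its genotype, and the KO points of Csf1r stand above the WT points in both LSK populations but not in the LK populations.

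Csf1r, at chr18:61105572-61131139 of that build, had the widest range. It read 12.69, 12.96 and 12.52 in WT LK GFPhi cells, 11.47, 12.16 and 11.35 in WT LSK GFPhi cells, 7.64, 7.60 and 7.58 in WT LK GFPneg cells and 8.29, 8.03 and 8.62 in WT LSK GFPneg-lo cells. No group overlapped another. The order from high to low was LK GFPhi, LSK GFPhi, LSK GFPneg-lo and LK GFPneg, with a 34.8-fold difference between its ends (5.12 ± 0.24 on the log2 scale, adjusted p = 3.37e-12 with limma). Its other probe sets gave 12.6-fold and 2.95-fold, both called. Csf1r was also the only one of the 6 called between LSK GFPhi and LSK GFPneg-lo cells, 10.2-fold higher in LSK GFPhi (3.35 ± 0.24, adjusted p = 2.91e-08 with limma, where 1.63% of all genes were called higher). The other probe sets gave 4.82-fold, called, and 1.61-fold, not called (adjusted p = 0.116 with limma). Its last step, LK GFPneg below LSK GFPneg-lo cells, was -0.71 ± 0.24 (adjusted p = 0.0338 with limma), and it missed the threshold in 5 of the 6 fits without 1 of these arrays. Its other probe sets gave -0.04 and 0.10 for that step and neither was called, so the order of these 2 populations rests on 1 probe set. The step from LSK GFPhi up to LK GFPhi cells was 1.06 ± 0.24 (adjusted p = 0.0131 with limma, where 2.02% of all genes were called higher), and adjusted p = 0.103 with limma when only those 2 groups were fitted. It was also lost without WT LSK GFPhi replicates 1 or 3 or WT LK GFPhi replicate 1. The other probe sets gave 1.35 and 0.97 for it, both called (13.5% of probe set by pair results were).

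Csf2rb, the shared beta chain, split the populations into a high group of 3 and LK GFPneg cells. It averaged 10.88 ± 0.52 in WT LK GFPhi cells, 10.27 ± 0.32 in WT LSK GFPhi cells, 10.03 ± 0.21 in WT LSK GFPneg-lo cells and 6.26 ± 0.53 in WT LK GFPneg cells (SD, n = 3). LK GFPhi cells stood 24.7-fold above LK GFPneg cells. Between LK GFPhi and LSK GFPneg-lo cells the difference was 0.86 ± 0.25 (adjusted p = 0.029 with limma, where 4.73% of all genes were called higher), and it missed the threshold in 4 of the 6 fits without 1 of these arrays, at 0.68 to 0.84. LSK GFPhi and LSK GFPneg-lo cells did not differ beyond their spread (0.25, adjusted p = 0.722 with limma). The difference of LK GFPhi minus LSK GFPhi cells was 0.61 (adjusted p = 0.209 with limma, and 0.0142 with the replicate number as a block, where 24.1% of all gene by pair results were called).

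Csf2rb2, the IL-3 beta chain of mice, averaged 8.88 ± 0.22 in WT LK GFPhi cells, 8.96 ± 0.44 in WT LSK GFPhi cells, 9.08 ± 0.36 in WT LSK GFPneg-lo cells and 6.47 ± 0.32 in WT LK GFPneg cells (SD, n = 3). The first 3 lay within 0.20 of each other, less than their SDs of 0.22 to 0.44. LK GFPhi cells were 5.32-fold above LK GFPneg cells. Csf3r had the same division, at 9.68 ± 0.09 in LK GFPhi cells, 10.04 ± 0.03 in LSK GFPhi cells, 9.72 ± 0.03 in LSK GFPneg-lo cells and 8.02 ± 0.40 in LK GFPneg cells (WT, SD, n = 3). No pair among the first 3 was called for Csf3r.

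The alpha chains had narrower ranges. Csf2ra averaged 8.17 ± 0.06 in LK GFPhi cells, 7.84 ± 0.35 in LSK GFPhi cells, 8.02 ± 0.27 in LSK GFPneg-lo cells and 7.05 ± 0.04 in LK GFPneg cells (WT, SD, n = 3), a 2.17-fold difference of LK GFPhi over LK GFPneg cells. The second Csf2ra probe set gave 1.2-fold for that pair and was not called (0.27, adjusted p = 0.541 with limma). It gave 0.40 for LSK GFPhi minus LK GFPneg and -0.55 for LK GFPneg minus LSK GFPneg-lo cells, neither called. Il3ra averaged 8.11 ± 0.13, 8.02 ± 0.33, 7.66 ± 0.22 and 7.12 ± 0.04 in the same order of WT populations, and LK GFPhi cells were 1.98-fold above LK GFPneg cells. Neither alpha chain was called between any of the other 3 populations. On the brightest probe sets, the exception to the low LK GFPneg level was Il3ra against LSK GFPneg-lo cells, at -0.54 ± 0.23 (adjusted p = 0.0884 with limma, and 0.00251 with the replicate block). With that block Il3ra in LK GFPhi minus LSK GFPneg-lo cells, 0.45, also passed (adjusted p = 0.0168 with limma).

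In KO cells the same division held, with 21 of 36 results called in the 6 KO pairs, against 14.5% over all genes, and these pairs share arrays as the WT pairs do. All 6 genes were again higher in LK GFPhi than in LK GFPneg cells (12.8% of all genes were). The KO folds of LK GFPhi over LK GFPneg were 43.5 for Csf2rb, 35.8 for Csf1r, 13.3 for Csf2rb2, 5.44 for Csf2ra, 3.6 for Csf3r and 1.87 for Il3ra. Between KO LK GFPhi and KO LSK GFPhi cells Csf2ra was the 1 gene called (0.83 ± 0.17, adjusted p = 0.0226 with limma, where 0.467% of all genes were higher), although it was lost without KO LK GFPhi replicate 3 (0.74, adjusted p = 0.0784 with limma) and without KO LSK GFPhi replicates 1 or 3 (0.113 and 0.0542). The mean of its probe sets gave 0.47 (adjusted p = 0.233 with limma), and fitting these 2 groups alone gave an adjusted p of 0.119. Csf1r, which separated these gates in WT cells, differed by -0.33 ± 0.24 there (adjusted p = 0.697 with limma).

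Set against WT, KO cells had more Csf1r RNA in both LSK populations, more Csf2rb2 RNA in LSK GFPhi and LK GFPhi cells and more Csf2ra RNA in LK GFPhi cells. Called higher were 1 of 6 genes in LSK GFPneg-lo cells (1.26% of all genes were), 2 of 6 in LSK GFPhi cells (2.91%) and 2 of 6 in LK GFPhi cells (5.78%). In LK GFPneg cells 0 of 6 were called by limma in either direction (2.65% of all genes were), and none had an unadjusted p under 0.05 apart from Csf2ra. No receptor gene was called lower anywhere. The median of the 6 differences was 0.48 in LSK GFPneg-lo cells (0.032 over all genes), 0.61 in LSK GFPhi cells (0.009), -0.17 in LK GFPneg cells (0.038) and 0.5 in LK GFPhi cells (0.074). In sorted bulk samples fewer cells of a type and less RNA per cell cannot be told apart.

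**Figure D2:**
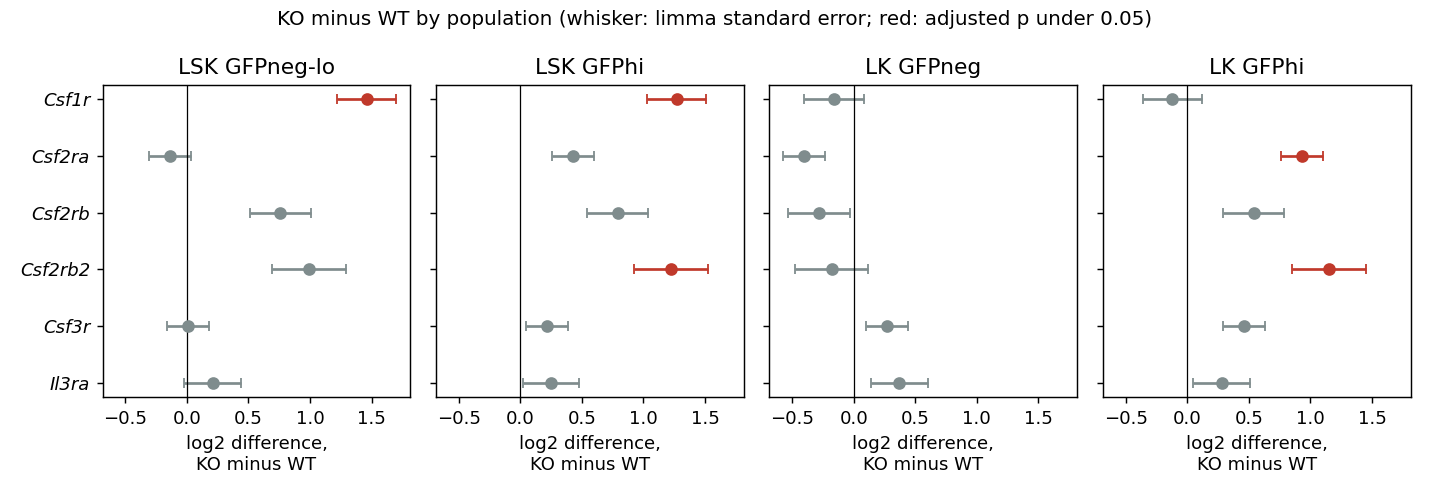
Difference of KO minus WT (log2, horizontal axis) for each receptor gene (rows) in the 4 populations (panels), with limma's standard error as a whisker and called differences in red. Csf1r is called at 1.46 and 1.27 in the LSK populations, Csf2rb2 at 1.22 in LSK GFPhi and 1.15 in LK GFPhi cells, and Csf2ra at 0.93 in LK GFPhi cells.

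In LSK GFPneg-lo cells Csf1r read 9.12, 9.90 and 10.29 in KO samples, against 8.29, 8.03 and 8.62 in WT samples. Every KO array lay above every WT array, an arrangement that 10.5% of all genes had. The difference was 1.46 ± 0.24, or 2.75-fold (adjusted p = 0.00126 with limma, and 0.0791 with limma when only these 2 groups were fitted). In LSK GFPhi cells the KO arrays read 13.15, 12.79 and 12.87, against 11.47, 12.16 and 11.35 for WT. These groups did not overlap either (9.67% of all genes had all KO arrays higher), and the KO mean was 2.42-fold higher (1.27 ± 0.24, adjusted p = 0.00213 with limma). KO LSK GFPhi cells, at 12.94, thus stood beside KO LK GFPhi cells at 12.60 and WT LK GFPhi cells at 12.72.

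In the LK populations the KO and WT arrays of Csf1r overlapped. LK GFPneg arrays read 7.35, 7.68 and 7.30 in KO cells, against 7.64, 7.60 and 7.58 in WT cells (-0.16, adjusted p = 0.925 with limma). LK GFPhi arrays read 12.41, 12.65 and 12.75 in KO cells, against 12.69, 12.96 and 12.52 in WT cells (-0.12, adjusted p = 0.791 with limma). The test of the difference between KO effects bears on this split: over the 6 pairs of populations 5 of 36 results were called, where 1.13% of results over all genes were. For Csf1r the KO effect in LK GFPneg cells minus that in LSK GFPneg-lo cells was -1.62 ± 0.34 (adjusted p = 0.0239 with limma). LK GFPhi minus LSK GFPneg-lo gave -1.58 ± 0.34 (adjusted p = 0.0275 with limma), and LSK GFPhi minus LK GFPneg gave 1.44 ± 0.34 (adjusted p = 0.027 with limma). In fits without 1 of the 12 arrays behind each of these 3, the call was lost in 9, 7 and 9 fits in the same order. LK GFPhi minus LSK GFPhi gave -1.40 ± 0.34 and missed the threshold (adjusted p = 0.176 with limma), but passed with the mean of the probe sets (-1.36, 0.0118) and without WT LSK GFPhi replicate 2 (-1.65, 0.0457). The second Csf1r probe set had the same pattern, with KO minus WT at 0.94 in LSK GFPneg-lo cells and 1.43 in LSK GFPhi cells, both called (1.58% and 3.32% of all probe sets were), and at 0.18 and -0.18 in LK GFPneg and LK GFPhi cells. The dimmest one gave 0.32 and 0.76 in the LSK populations and was not called.

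**Figure D3:**
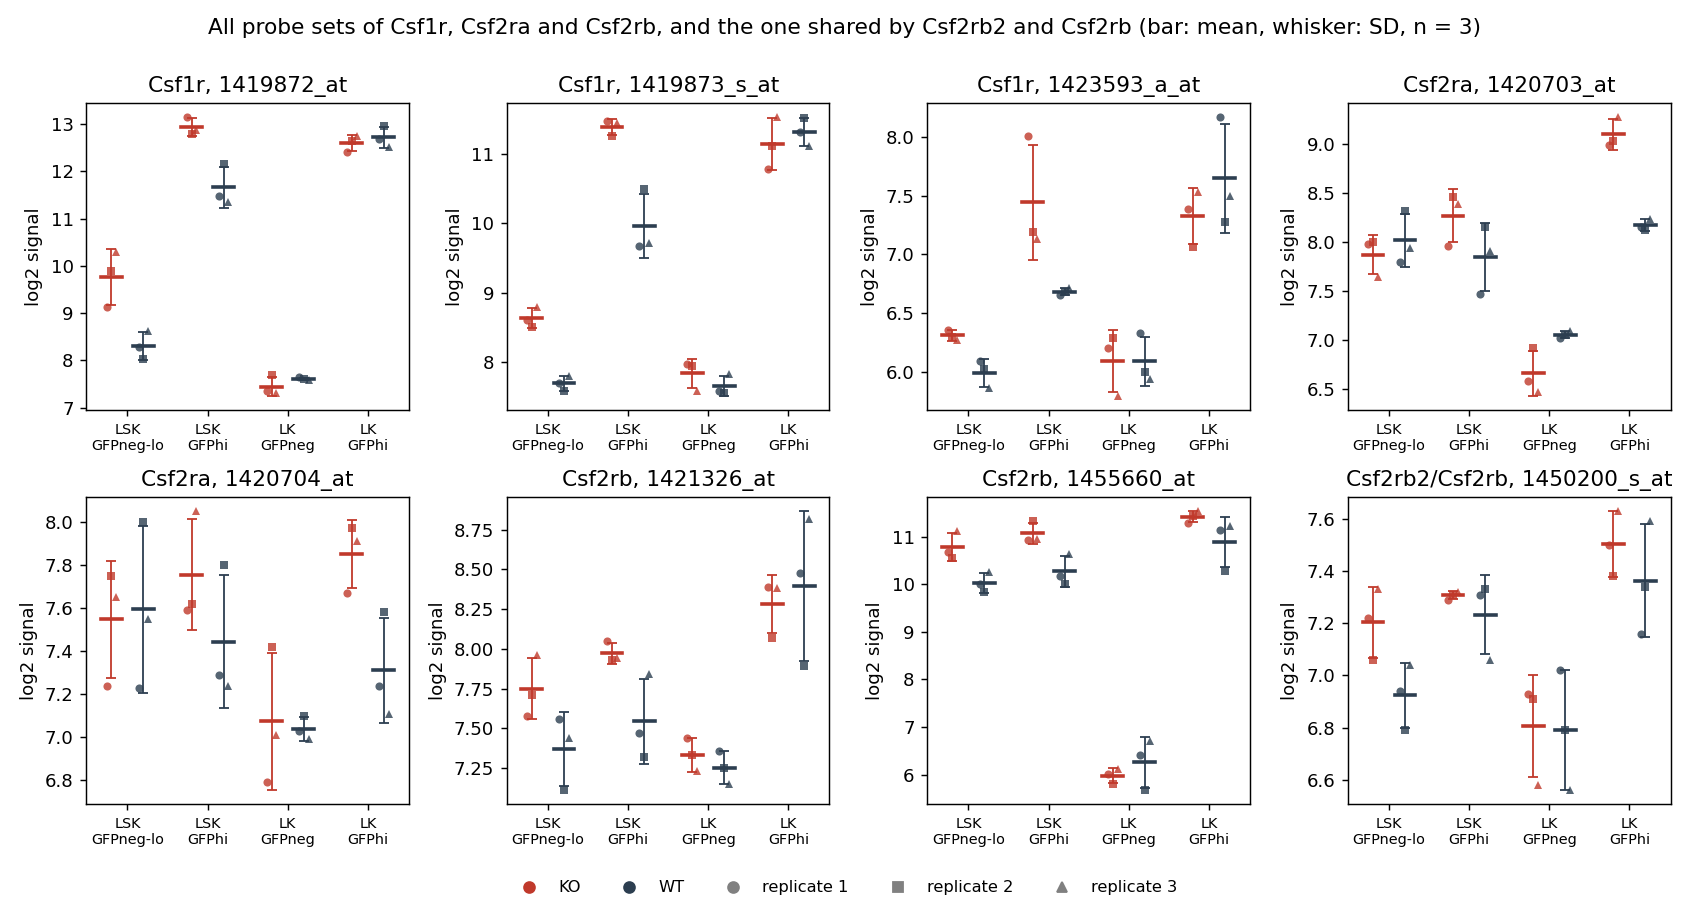
Log2 signal (vertical axis) by population for every probe set of Csf1r, Csf2ra and Csf2rb and for the one annotated to both Csf2rb2 and Csf2rb, with points for arrays, means as bars and SDs as whiskers (n = 3), KO left of WT. The first and second Csf1r probe sets show the same pattern. The brighter Csf2rb probe set drops in LK GFPneg cells. In WT cells the dimmer one averages 7.25 there, against 7.37 in LSK GFPneg-lo and 7.55 in LSK GFPhi cells, neither difference called.

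Csf2ra, the GM-CSF alpha chain, was called in LK GFPhi cells, where Csf1r was not. In LK GFPhi cells it read 8.99, 9.04 and 9.28 in KO samples, against 8.16, 8.12 and 8.24 in WT samples. The groups lay well apart, at 1.9-fold higher in KO cells (0.93 ± 0.17, adjusted p = 0.00151 with limma), and 17.1% of all genes had all KO arrays higher. In LK GFPneg cells the KO arrays read 6.58, 6.92 and 6.47, against 7.02, 7.05 and 7.09 for WT. Every KO array was lower here (5.61% of all genes had that arrangement), but the difference of -0.40 ± 0.17 was not called (adjusted p = 0.414 with limma). The LSK populations gave -0.14 in GFPneg-lo and 0.43 in GFPhi cells, neither called. The KO effect in LK GFPhi cells exceeded that in LK GFPneg cells by 1.32 ± 0.24 (adjusted p = 0.00347 with limma) and that in LSK GFPneg-lo cells by 1.07 ± 0.24 (adjusted p = 0.0391 with limma), with the 1.07 call lost in 9 of 12 fits without 1 array. The second, dimmer Csf2ra probe set gave 0.54 for KO minus WT in LK GFPhi cells and was not called (adjusted p = 0.116 with limma). In LK GFPneg cells it gave 0.03 (adjusted p = 0.994 with limma), and its KO and WT arrays overlapped there.

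The KO mean of Csf2rb2 was above the WT mean in all populations but LK GFPneg, and the difference was called in 2 of them. In LSK GFPhi cells it read 9.80, 10.56 and 10.19 in KO samples, against 8.64, 8.78 and 9.47 in WT samples. No arrays overlapped (9.67% of all genes had all KO arrays higher), with a 2.33-fold higher KO mean (1.22 ± 0.30, adjusted p = 0.0179 with limma). That call was lost without KO replicate 2 (1.03, adjusted p = 0.118 with limma), without KO replicate 3 (0.0642) and without WT replicates 1 or 2 (0.111 and 0.0772). In LK GFPhi cells it read 9.32, 9.99 and 10.76 in KO samples, against 8.64, 8.91 and 9.09 in WT samples. Again no arrays overlapped (17.1% of all genes had all KO arrays higher), although the KO arrays were spread over more than a log2 unit (1.15 ± 0.30, 2.21-fold, adjusted p = 0.0182 with limma). Without KO replicate 3, the highest array, the difference was 0.78 (adjusted p = 0.127 with limma), without WT replicate 1 it was 1.03 (0.0835), and with only these groups fitted the adjusted p was 0.15.

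In LSK GFPneg-lo cells Csf2rb2 read 9.90, 10.00 and 10.33 in KO samples, against 8.86, 8.89 and 9.50 in WT samples. The groups did not overlap (10.5% of all genes had all KO arrays higher). The difference of 0.99 ± 0.30 had an adjusted p of 0.108 with limma, or 0.0265 with the replicate block (4.64% of all genes were called with it). LK GFPneg arrays read 6.42, 6.37 and 6.07 in KO cells, against 6.78, 6.13 and 6.50 in WT cells. These overlapped, and the difference of -0.18 was not called.

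Csf2rb had a smaller difference in the same 3 populations. LSK GFPneg-lo arrays read 10.68, 10.55 and 11.12 in KO cells, against 10.00, 9.83 and 10.25 in WT cells. LSK GFPhi arrays read 10.93, 11.32 and 10.95 in KO cells, against 10.17, 10.01 and 10.63 in WT cells, and LK GFPhi arrays read 11.29, 11.43 and 11.53 in KO cells, against 11.13, 10.28 and 11.23 in WT cells. Within each of these 3 populations all KO arrays lay above all WT arrays, an arrangement that 10.5%, 9.67% and 17.1% of all genes had in the same order. No single difference was called: they were 0.76 ± 0.25 (adjusted p = 0.18 with limma, and 0.0272 with the replicate block), 0.79 (0.0941) and 0.54 (0.195). The last was 0.24 without the WT array that stood apart. Array weights called the 2 LSK differences (adjusted p = 0.0352 and 0.0315 with limma), where 1120 and 1288 of all 18193 genes were called. LK GFPneg arrays overlapped, at 6.02, 5.80 and 6.11 in KO cells and 6.41, 5.67 and 6.70 in WT cells. For both beta chains the KO effect in LK GFPhi minus that in LK GFPneg cells passed with the replicate block, at 0.82 for Csf2rb and 1.33 for Csf2rb2 (adjusted p = 0.036 each with limma, 2.94% of all results called), against 0.398 and 0.13 without it. Without KO LK GFPhi replicate 1 the Csf2rb2 difference was 1.68 and passed with no block (adjusted p = 0.02 with limma).

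The beta chain signals carry an uncertainty of their own. The second Csf2rb probe set spanned 1.14 log2 units over the 8 groups and gave -0.12 for KO minus WT in LK GFPhi cells, where the brighter one gave 0.54. For WT LK GFPneg minus LSK GFPneg-lo cells it gave -0.12, where the brighter one gave -3.77. A further probe set annotated to both Csf2rb2 and Csf2rb stayed between 6.56 and 7.63 on all arrays and entered no test. How far each probe set takes up RNA of the near-identical neighbour was not tested.

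Csf3r and Il3ra were not called in any KO against WT comparison. Csf3r in LK GFPhi cells read 10.19, 10.31 and 9.91 in KO samples, against 9.78, 9.59 and 9.67 in WT samples. The KO arrays were all higher, an arrangement that 17.1% of all genes had. The difference of 0.46 ± 0.17 had an adjusted p of 0.0996 with limma, which 2 of 12 other settings brought to 0.0349 and 0.0391. Its other differences were 0.01 in LSK GFPneg-lo cells, 0.22 in LSK GFPhi cells and 0.27 in LK GFPneg cells. Il3ra differed by 0.21 and 0.25 in the LSK populations (GFPneg-lo, then GFPhi), by 0.37 in LK GFPneg cells and by 0.28 in LK GFPhi cells. In LK GFPneg cells its KO arrays, at 7.33, 7.74 and 7.40, were all above the WT arrays at 7.09, 7.10 and 7.17 (8.26% of all genes had that arrangement, adjusted p = 0.674 with limma).

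Averaged over the 4 populations, 3 of 6 receptor genes were called higher in KO cells, where 9.76% of all genes were. The mean KO effect was 0.79 ± 0.15 for Csf2rb2 (adjusted p = 0.000768 with limma), 0.61 ± 0.12 for Csf1r (0.00119) and 0.45 ± 0.13 for Csf2rb (0.0178). It was 0.28 for Il3ra, 0.24 for Csf3r and 0.20 for Csf2ra, none called. A Y-linked RNA, Eif2s3y, differed between arrays, and with its level as a covariate Csf2rb2 kept the call, Csf1r and Csf2rb lost it (0.0592 and 0.0898) and Il3ra gained it (0.59, adjusted p = 0.0465 with limma).

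Markers of other stages and lineages moved beside these differences, and their part in them was not tested. The granulocyte and monocyte progenitor list averaged 9.22 to 9.74 on KO and 8.55 to 8.89 on WT arrays of LSK GFPneg-lo, and 10.60 to 10.75 on KO and 9.73 to 9.88 on WT arrays of LSK GFPhi, the 2 populations in which Csf1r was called. Of its 10 genes 2 and 4 were called higher there and 0 lower, among them Ctsg, a granule protease, at 1.43 and 1.17. Mpo, the defining granule enzyme of such progenitors, was at 0.08 and 0.18 and not called. The monocyte and macrophage list (15 genes) averaged 6.61 to 6.77 on KO and 6.41 to 6.45 on WT arrays of LSK GFPneg-lo and 7.43 to 7.81 on KO and 6.92 to 7.15 on WT arrays of LSK GFPhi, with 2 and 4 genes called higher. The median difference of its 15 genes was small, at 0.08 and 0.1, where that of all genes was 0.032 and 0.009. The list mean was thus raised by a few of its genes. In KO LSK GFPhi cells Mrc1, a macrophage scavenger receptor, was 17.6-fold higher than in WT, and Cd14, a coreceptor for bacterial lipopolysaccharide, 4.37-fold. In LK GFPhi cells, where Csf1r was not called, the granulocyte and monocyte progenitor list read 11.39 to 11.74 on KO and 10.27 to 11.46 on WT arrays with 2 genes higher. The monocyte and macrophage list read 7.59 to 7.94 on KO and 7.42 to 7.54 on WT arrays there, with Lyz2, Mrc1 and Cd14 higher and Cx3cr1 and Ly86 lower.

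Other lists differed in the LSK populations as well. Stem cell markers read 9.94 to 10.11 on KO and 9.34 to 9.68 on WT arrays of LSK GFPneg-lo, and 8.61 to 8.96 on KO and 7.44 to 7.67 on WT arrays of LSK GFPhi, with 4 and 5 of 10 genes called higher. Early lymphoid markers read 7.17 to 7.46 on KO and 7.92 to 8.23 on WT arrays of LSK GFPhi, with 6 of 10 lower, and 6.59 to 6.73 on KO and 6.76 to 6.91 on WT arrays of LSK GFPneg-lo, with 0 called by limma (2 had an unadjusted p under 0.05). The mast cell and basophil list read 7.48 to 7.91 on KO and 6.95 to 7.03 on WT arrays of LSK GFPneg-lo, and 7.31 to 7.86 on KO and 6.76 to 6.82 on WT arrays of LSK GFPhi, with 1 and 2 of 9 genes higher. Its gene Mcpt8, a basophil protease, was called higher in all 4 populations.

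**Figure D4:**
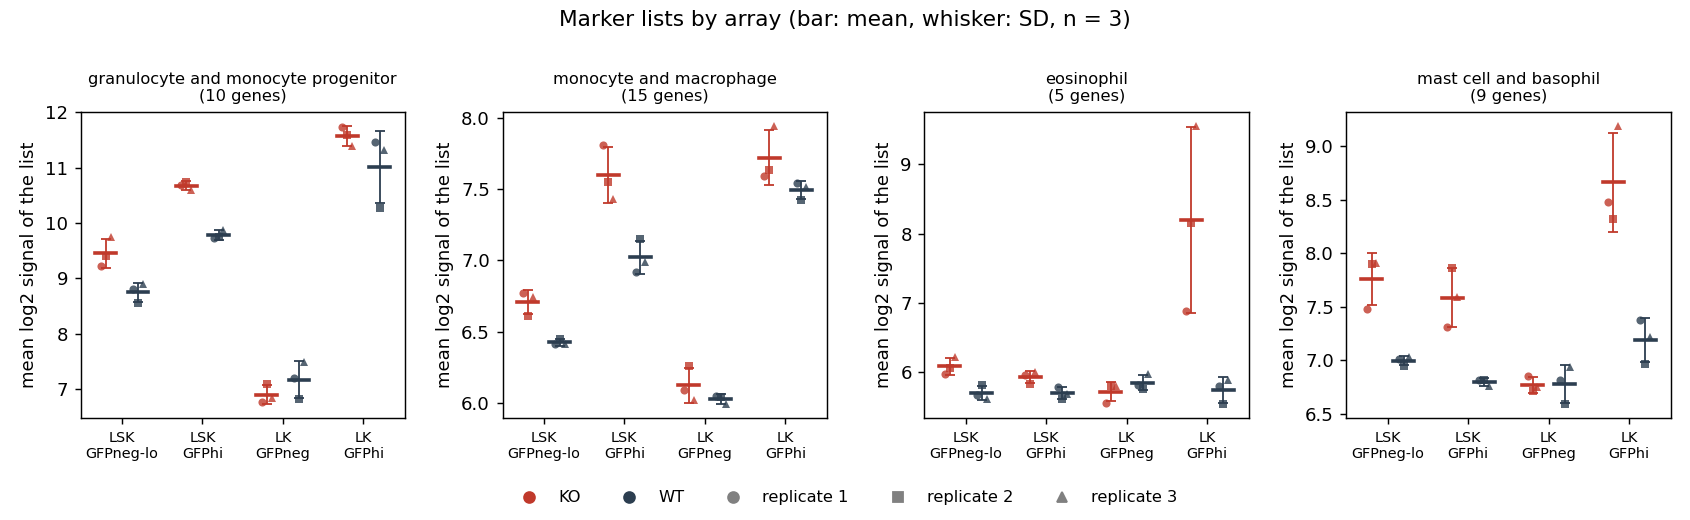
Mean log2 signal of 4 marker lists (vertical axes) by population, with 1 point per array, means as bars and SDs as whiskers (n = 3), KO left of WT. The eosinophil list stands apart in KO LK GFPhi cells, at 6.88 to 9.55, against 5.54 to 5.89 in WT LK GFPhi cells.

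In LK GFPhi cells the eosinophil list (5 genes) read 6.88, 8.16 and 9.55 on KO replicates 1, 2 and 3, against 5.54 to 5.89 on WT arrays, with 4 genes called higher. The same 3 KO arrays had 9.32, 9.99 and 10.76 for Csf2rb2 and 8.99, 9.04 and 9.28 for Csf2ra, so replicate 3 was highest in each. Replicate 3 was also the highest of these for the mast cell and basophil, erythroid and megakaryocyte, stem cell and early lymphoid lists. The same held for the monocyte and macrophage list and the dendritic cell list. It was the lowest for the mature neutrophil list and the granulocyte and monocyte progenitor list. Prg2 and Epx, eosinophil granule proteins, were 24.5-fold and 13.5-fold higher in KO cells. Il5ra, the alpha chain that pairs with Csf2rb for IL-5, averaged 5.41 in KO and 5.13 in WT LK GFPhi cells and was called in no population. The mast cell and basophil list (9 genes) read 8.32 to 9.19 on KO and 6.97 to 7.38 on WT arrays with 5 genes higher, and the mature neutrophil list (10 genes) 7.13 to 7.46 on KO and 6.11 to 6.38 on WT arrays, also with 5 higher. Stem cell markers (10 genes) read 7.95 to 8.33 on KO and 6.57 to 6.91 on WT arrays there, with 5 higher. Early lymphoid markers read 6.74 to 7.37 on KO and 8.05 to 8.26 on WT arrays, with 6 of 10 lower. The erythroid and megakaryocyte list read 8.28 to 9.08 on KO and 7.47 to 7.92 on WT arrays, with 3 of 10 higher. Without KO replicate 3, the Csf2ra difference was 0.84 and still called (adjusted p = 0.0117 with limma), and that of Csf2rb2 was 0.78 and not called (0.127). The KO arrays left in that fit read 6.88 and 8.16 for the eosinophil list, above the WT arrays. The part of any of these lists in either difference was not tested.

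Other genes of the pathway were counted from fixed lists. Over all genes, those called lower in KO cells were 0.879% in LSK GFPneg-lo cells, 1.69% in LSK GFPhi cells, 1.45% in LK GFPneg cells (1.2% higher there) and 3.79% in LK GFPhi cells. None of the 6 ligand genes Csf1, Il34, Csf2, Csf3, Il3 and Il5 was called by limma in these comparisons (1 had an unadjusted p under 0.05, in LK GFPhi cells), and their group means lay between 4.60 and 8.05. In the other cytokine receptors of progenitors, 17 of 19 listed genes were measured. Of these 0 were called by limma in LSK GFPneg-lo cells (3 had an unadjusted p under 0.05), 2 were lower in LSK GFPhi, 1 was lower in LK GFPneg, and 4 were lower and 1 higher in LK GFPhi cells. Flt3, the receptor of lymphoid-primed progenitors, averaged 10.01 in KO and 11.69 in WT LK GFPhi cells (-1.68 ± 0.29, adjusted p = 0.000689 with limma). Il7r, the IL-7 receptor alpha chain, averaged 7.21 in KO and 10.00 in WT cells of that gate (-2.78 ± 0.26, adjusted p = 5.51e-07 with limma). Il6st, the signalling chain of the IL-6 family, fell to 8.50 in KO cells there, against 10.56 in WT cells (-2.07 ± 0.34, adjusted p = 0.000414 with limma). In KO LK GFPhi cells these 3 receptors were thus lower while Csf2ra and Csf2rb2 were higher.

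Downstream of the receptors, of 10 measured JAK kinases and STATs 1 was called, Stat5b, which was lower in KO LK GFPhi cells (9.45 in KO, 10.03 in WT, -0.58 ± 0.12, adjusted p = 0.00437 with limma). Jak2, the kinase bound to the beta chain, was called nowhere. Among 17 measured adaptors and kinases Tyrobp, an adaptor of myeloid cells, was lower in 3 populations, by -1.16 in LSK GFPneg-lo, -0.90 in LSK GFPhi and -0.99 in LK GFPhi cells. Syk, a kinase recruited by such adaptors, was higher in LK GFPneg and LK GFPhi cells (0.56 and 0.92), and Fgr, a Src family kinase, in LSK GFPhi and LK GFPhi cells (0.65 and 0.68). Plcg2 was lower in LK GFPneg cells.

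The one gene of these pathway lists that was called in all 4 populations was Socs3, a feedback inhibitor of receptors such as those for G-CSF and IL-6. Socs3 read 10.07, 10.24 and 10.32 in KO LSK GFPneg-lo cells, against 7.53, 8.60 and 8.64 in WT. In LK GFPhi cells it read 9.58, 9.65 and 10.38 in KO samples, against 5.55, 6.97 and 6.74 in WT samples. The groups lay more than 1 log2 unit apart in both gates. It was 3.87-fold higher in KO LSK GFPneg-lo cells (1.95 ± 0.35, adjusted p = 0.00283 with limma), 5.19-fold higher in LSK GFPhi cells (0.00016), 2.5-fold higher in LK GFPneg cells (0.0474) and 10.9-fold higher in LK GFPhi cells (3.45, 1.91e-06). Of the 16 inhibitors measured, Usp18 was lower in LSK GFPhi cells, Inpp5d was lower and Spry2 higher in LK GFPhi cells, and the others were not called. Cish, an inhibitor induced by STAT5, ranged from 0.35 to 0.79 and was not called. Of 15 genes known to be induced by CSF or IL-3 signals, 0 were called higher by limma (in all, 2, 1, 0 and 7 had an unadjusted p under 0.05 in either direction, in the order of gates above), and Cd69 in LSK GFPhi and Bcl2 in LK GFPhi cells were lower (-1.21 and -1.72).

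Among 15 measured transcription factors of myeloid genes, 1 was called higher in KO LSK GFPneg-lo cells, 3 in LSK GFPhi cells and 5 in LK GFPhi cells, and none was in LK GFPneg cells (3 had an unadjusted p under 0.05 there in either direction). Cebpd, a C/EBP factor of myeloid cells, was higher in the first 2 and the last (1.37, 1.57 and 0.74), the populations in which a receptor gene was called. A link of Cebpd to any receptor gene was not tested. Cebpa, required for granulocyte and monocyte progenitors, was called higher in LSK GFPhi cells (0.61 ± 0.17, adjusted p = 0.0477 with limma) and differed by 0.54 in LK GFPhi cells (0.056) and 0.41 in LSK GFPneg-lo cells (0.391), and whether these differ from each other was not tested. Gata2, a factor of stem and mast cells, was lower in LK GFPneg cells and higher in LK GFPhi cells (-0.77 and 1.39). Irf8, which directs monocyte and dendritic fates, was lower in KO LK GFPhi cells, at 10.09 in KO and 11.41 in WT. Spi1, which encodes PU.1, was called nowhere, at 0.02, 0.47, 0.29 and 0.63 in the order of the gates above.

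The receptor genes resembled each other over the 8 group means, which share the low LK GFPneg groups. Pearson's r lay between 0.74 for Csf1r with Csf2rb2 and 0.968 for Csf2rb with Csf2rb2, the neighbouring pair. Of 4207 genes whose group means spanned at least 1 log2 unit, those most like each receptor over these 8 points were as follows. F13a1 (r = 0.982), Ccr2 (0.981) and Galnt3 (0.977) were nearest to Csf1r, and Lbp (0.996), Serpinf1 (0.996) and Cd79b (0.995) to Csf2rb. For Csf2rb2 they were Emilin1 (0.995), Clec4e (0.994) and Lyz2 (0.992), and for Csf3r Atp10a (0.992), Smpd2 (0.99) and Gnai2 (0.989). Atp6v0b (0.979), Xbp1 (0.978) and Mapkapk3 (0.972) were nearest to Csf2ra, and Ift57 (0.986), Mgat5 (0.976) and Fcgr2b (0.975) to Il3ra. These genes were picked over means that include KO and WT LSK GFPhi cells, so a difference shared there follows in part from the choice. In that gate F13a1 averaged 11.32 in KO and 9.46 in WT cells, Ccr2 10.95 and 10.69, and Galnt3 6.93 and 6.54. Clec4e averaged 10.26 in KO and 8.45 in WT cells there, Emilin1 9.72 and 9.07, and Lyz2 10.7 and 9.67.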

How the data were processed

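The deposited values are log2 signals that the authors made with RMA, per the submitters' processing notes, which name no version. Per the labels' protocols, total RNA was extracted with Trizol and biotin-labelled. Values lay between 3.33 and 14.52, and array medians between 6.57 and 6.75. Of 45101 probe sets, 64 controls, 932 with several symbols and 9160 with none were left out. Of the 34945 with 1 symbol, 34741 matched the gene table by Entrez ID. The probe set with the highest mean stood for each of 18193 genes. One limma 3.58.1 fit (R 4.3.3, lmFit and eBayes) of the 8 groups (16 residual degrees of freedom, 3.27 added by eBayes) gave standard errors and two-sided p-values, adjusted by Benjamini and Hochberg over all genes within a comparison. Called means an adjusted p under 0.05. Exact permutation of 3 against 3 arrays cannot go below 0.1 and was not used. The fit was tested on simulated data.

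Pairing was judged from same-numbered arrays only, without comparing differently numbered ones. Replicate numbers in the titles were taken to pair arrays where every same-numbered pair of deviations from group means correlated above 0.1. Between KO and WT arrays this was so in LK GFPneg (lowest r 0.359), LSK GFPneg-lo (0.276) and LK GFPhi (0.175) but not LSK GFPhi (0.0238), for all 6 WT pairs (0.171 or more), for 4 of the 6 KO pairs (0.169 or more), and for 1 difference between KO effects (LK GFPhi minus LK GFPneg, 0.169).

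The receptor genes, lists, tests and alternatives were chosen with earlier results of these data known. Named genes are all 6 members, the 3 most alike to each, up to 3 called genes with the smallest adjusted p from each list, called ligands, Il5ra and Ikzf1. Mpo, Jak2, Cish, Cebpa, Irf8, Spi1, Plcg2 and Spry2 were named beside that rule after their values were seen, as were Lyz2 and Cx3cr1. The dendritic cell list (9 genes) had 2 lower genes each in LSK GFPhi and LK GFPhi cells and no other call. Promoter windows and gene coordinates are from RefSeq, GRCm38.p6.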

Additional observations from a re-analysis of the deposited data

Results flagged for a closer look

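For 2 receptor genes the KO effect differed between populations by the interaction term of the limma fit. The Csf1r effect differed by -1.62 (LK GFPneg minus LSK GFPneg-lo), -1.58 (LK GFPhi minus LSK GFPneg-lo) and 1.44 (LSK GFPhi minus LK GFPneg), each ± 0.34, with adjusted p of 0.0239, 0.0275 and 0.027 with limma. Behind them stand KO minus WT differences of 1.46, 1.27, -0.16 and -0.12 in LSK GFPneg-lo, LSK GFPhi, LK GFPneg and LK GFPhi cells, with all 3 KO arrays above all 3 WT arrays in both LSK populations (as for 10.5% and 9.67% of all genes). These calls are near the threshold: fitted on their own groups the first and second gave 0.0793 and 0.123, with the mean of a gene's probe sets the first was -0.90 (0.0733), with a further quantile normalization the third was 1.36 (0.0643), and in fits without 1 of their 12 arrays they were lost in 9, 7 and 9.

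The Csf2ra effect in LK GFPhi cells exceeded that in LK GFPneg cells by 1.32 (adjusted p = 0.00347 with limma) and that in LSK GFPneg-lo cells by 1.07 (0.0391), each ± 0.24. In LK GFPhi cells all 3 KO arrays were higher than all WT arrays (as for 17.1% of all genes) and in LK GFPneg cells all 3 were lower (5.61%). These arrangements are those of the brightest probe set. The second probe set gave 0.54 and 0.03 in these 2 gates, neither called. The 1.32 difference ran from 0.92 to 1.41 over the other settings and stayed called (adjusted p up to 0.0372 with limma). The 1.07 difference had an adjusted p of 0.0632 with limma when fitted on its own groups. It was 0.83 (0.11) with the mean of the probe sets, and its adjusted p was 0.0548 with Eif2s3y as a covariate. KO effects of 2 populations share no arrays, but the pairs of populations share them. Causes were not tested.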

How the results depend on the processing

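The counts of receptor genes called in LSK GFPneg-lo, LSK GFPhi, LK GFPneg, LK GFPhi, the mean KO effect, the WT pairs, the KO pairs and the differences between KO effects were 1, 2, 0, 2, 3, 21, 21 and 5. Fitting only the groups compared gave 0 in LSK GFPneg-lo, 1 in LK GFPhi and 2 differences, with fewer residual degrees of freedom, and the mean effect already uses all groups. The replicate block gave 3 in LSK GFPneg-lo, 6 for the mean and 11 differences, and array weights gave 3 in LSK GFPneg-lo, 4 in LSK GFPhi and 6 for the mean. The weights added Csf2rb and Csf2rb2 in LSK GFPneg-lo (adjusted p = 0.0352 and 0.0179 with limma). In LSK GFPhi they added Csf2ra and Csf2rb (0.0136 and 0.0315). For the mean the numbers do not pair (lowest r -0.0891), and among the differences they pair only for LK GFPhi minus LK GFPneg. KO effects and their mean used a block shared by KO and WT. Pairs of populations and differences used a separate block for each genotype. Each block was fitted over all 4 populations, so it also drew on gates whose numbers do not pair. The block called Csf2rb in LSK GFPhi cells (adjusted p = 0.0129 with limma), where the numbers do not pair. Among the paired comparisons it also called Il3ra in KO LK GFPneg minus LSK GFPneg-lo cells (-0.38, adjusted p = 0.0287 with limma, 0.264 without it), and beyond this and those printed above it changed no call of a receptor gene there. A 2-fold minimum left 1 in LK GFPhi (Csf2rb2) and 0 for the mean. Over all genes, calls in LSK GFPneg-lo ranged with these settings, from 389 to 199 alone, 844 with the block, 1120 with weights and 172 with the fold minimum. In LK GFPhi 1740 became 491, 4034, 3240 and 504.

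Without 1 array the counts ran from 1 to 1, 1 to 2, 0 to 0, 1 to 2, 3 to 4, 19 to 22, 20 to 24 and 2 to 7 in the order above. Csf1r in LSK GFPhi cells kept its call in all 18 repeats, and Csf1r in LSK GFPneg-lo cells and Csf2ra in LK GFPhi cells in 17 of 18. Uncalled values near 0 turned sign. Csf1r in LK GFPneg was 0.01 and Csf2ra in WT LK GFPhi minus LSK GFPneg-lo -0.06 with probe sets averaged. Csf3r in LSK GFPneg-lo was -0.12 with array weights, 0.00 with median centring and -0.05 with quantile normalization. Csf2rb2 was 0.01 in WT LK GFPhi minus LSK GFPhi with array weights and 0.21 in LK GFPneg with Eif2s3y. Without 1 array, KO minus WT in LSK GFPneg-lo ranged from -0.25 to 0.01 for Csf2ra, -0.20 to 0.14 for Csf3r and -0.01 to 0.49 for Il3ra. WT LSK GFPhi minus LSK GFPneg-lo ranged from -0.33 to 0.02 for Csf2ra and -0.37 to 0.09 for Csf2rb2. WT LK GFPhi minus LSK GFPneg-lo ranged from -0.32 to 0.01 for Csf2rb2 and -0.09 to 0.00 for Csf3r, and WT LK GFPhi minus LSK GFPhi from -0.25 to 0.17 for Csf2rb2 and -0.06 to 0.27 for Il3ra. The cause was not tested.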
